A study of Mus musculus with 4 samples.

Results

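Pan-myeloid genes are genes that macrophages, microglia and their blood relatives share, and 45 of them were followed here in cultures of mouse cortical astrocytes with and without CD38. The 45 were chosen by symbol, as transcription factors, growth factor receptors, surface proteins and signalling, cytoskeletal, oxidase and lysosomal genes of the myeloid lineage, and each matched 1 of the 55467 gene IDs in every library. RNA was sequenced from 2 CD38 KO and 2 wild-type (WT) libraries of primary astrocytes, glial cells that support neurons. CD38 is a surface enzyme that consumes NAD+, and the series asks what it does in astrocytes of the young brain for synapses and social memory. All libraries came from cortices of newborn mice, digested with dispase, grown for 14 days in medium with serum, shaken for 12 h with the liquid discarded, replated and harvested 5 days later. The labels give neither the strain, the sex nor the deleted exons, and do not say whether replicates came from separate animals or cultures. The p-values therefore measure only the spread between these libraries, which may be technical, and CD38 loss cannot be told apart from a difference in strain or in preparation of the cultures.

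The values are FPKM, fragments scaled to transcript length and to the mapped fragments of the library, which can be compared between genes because transcript length is divided out. The steps between low values gave an estimated depth of 29033500 and 29090500 fragments in CD38 KO and of 26839500 and 28253000 fragments in WT. Cd38 itself was at 0.0222 FPKM in each CD38 KO library, against 3.13 and 3.45 FPKM in WT, so all libraries carried the level their labels name. The astrocyte markers Gfap, Aqp4, Slc1a3, Slc1a2 and Aldh1l1 were present throughout, with Gfap at 1200 and 1220 FPKM in CD38 KO and 1390 and 1330 FPKM in WT. Summed over 10 astrocyte markers, the level was 2860 to 2890 FPKM in CD38 KO and 3230 to 3340 FPKM in WT, with 2 markers called higher and 6 lower. The filter kept the 13064 genes whose mean over all 4 libraries reached 1 FPKM, and limma called 8.0% higher and 6.35% lower in CD38 KO at an adjusted p under 0.05.

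Myeloid cells arise from blood-forming precursors, and microglia, the resident macrophages of the brain, descend from such precursors of the yolk sac. PU.1, the product of Spi1, is the transcription factor that commits cells to this lineage, and the receptor for colony-stimulating factor 1 keeps macrophages and microglia alive. Cultures of cortical astrocytes are known to hold some microglia, which sit on the astrocyte layer and are commonly shaken off. In such bulk RNA a change in the number of myeloid cells and a change in the RNA that each cell holds cannot be told apart.

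Many promoters of myeloid genes lack a TATA box and are known to use a purine-rich site for PU.1 close to the start of transcription. RefSeq promoters on GRCm38.p6, running 250 bases before to 50 after a start, were found for 34 of the 45 genes. In them 4 strings of letters were searched on both strands. The core GAGGAA, which PU.1 and other ETS factors can read, was in a promoter of 22 of the 34 genes (64.7%), against 8424 of 26991 other genes (31.2%). The ETS-IRF composite, GGAA and GAAA with any 2 bases between them, to which PU.1 and IRF8 can bind together, was in 2 of 34 (5.9%), against 3.2% of other genes. The RUNX string TGTGGT was in 8 of 34 (23.5%), against 18.9%, and the C/EBP string TTGCNNAA in 2 of 34 (5.9%), against 12.2%. These shares are descriptions of letters, with no test, and say nothing about binding.

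The promoters printed here belong to 3 genes that rose strongly in CD38 KO, Cybb, Cd68 and Vav1, and of 2 that did not follow them, Csf2ra and Cyba. Capitals mark every match to the 4 strings, and positions count from the start of transcription, with the first transcribed base as 1. The Cybb promoter is chrX:9469275-9469574, Cd68 chr11:69666121-69666420, Csf2ra chr19:61228369-61228668 and Cyba chr8:122432891-122433190, all on the minus strand, and Vav1 is chr17:57278850-57279149 on the plus strand.
Cybb: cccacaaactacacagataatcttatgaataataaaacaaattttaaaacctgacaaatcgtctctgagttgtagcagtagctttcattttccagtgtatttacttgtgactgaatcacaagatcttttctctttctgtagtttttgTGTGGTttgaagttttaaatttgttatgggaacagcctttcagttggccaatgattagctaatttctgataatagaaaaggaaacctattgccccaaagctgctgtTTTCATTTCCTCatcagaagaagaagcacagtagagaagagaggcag
Cd68: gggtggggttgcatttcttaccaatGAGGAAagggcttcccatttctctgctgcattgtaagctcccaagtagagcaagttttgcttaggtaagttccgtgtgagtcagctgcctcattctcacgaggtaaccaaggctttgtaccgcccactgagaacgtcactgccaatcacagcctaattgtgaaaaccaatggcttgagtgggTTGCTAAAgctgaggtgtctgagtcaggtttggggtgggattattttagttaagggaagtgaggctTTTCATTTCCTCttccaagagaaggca
Vav1: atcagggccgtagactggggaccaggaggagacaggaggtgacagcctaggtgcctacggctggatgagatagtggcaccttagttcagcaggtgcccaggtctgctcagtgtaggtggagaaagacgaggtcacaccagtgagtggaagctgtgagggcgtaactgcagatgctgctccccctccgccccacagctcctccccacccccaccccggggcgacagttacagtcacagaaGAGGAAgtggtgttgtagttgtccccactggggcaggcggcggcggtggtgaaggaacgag
Csf2ra: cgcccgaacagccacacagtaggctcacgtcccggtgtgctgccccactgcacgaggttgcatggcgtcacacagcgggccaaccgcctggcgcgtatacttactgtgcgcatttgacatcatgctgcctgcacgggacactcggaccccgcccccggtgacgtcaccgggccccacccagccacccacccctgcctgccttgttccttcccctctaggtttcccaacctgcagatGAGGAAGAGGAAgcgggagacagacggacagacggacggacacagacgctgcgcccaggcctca
Cyba: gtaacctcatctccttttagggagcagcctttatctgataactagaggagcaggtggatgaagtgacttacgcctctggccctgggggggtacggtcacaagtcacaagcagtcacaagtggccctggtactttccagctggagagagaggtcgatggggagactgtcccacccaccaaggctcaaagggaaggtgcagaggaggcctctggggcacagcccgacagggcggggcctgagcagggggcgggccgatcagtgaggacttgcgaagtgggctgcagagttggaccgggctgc
Cybb and Cd68 were the 2 genes with the composite, read on the minus strand from position 4 in Cybb and from position 24 in Cd68. In both it shares 4 bases with an ETS core, so that the same run of capitals, TTTCATTTCCTC, stands in both promoters. Vav1 holds a single ETS core at position -11. Csf2ra holds ETS cores at positions -14 and -8, and Cyba holds none of the 4 strings in this window. A match was thus present both in genes that rose and in one whose level did not pass the test. Some genes that rose strongly held none of the 4 strings in this window. Among them were Ncf1, Ms4a6c and Mpeg1, which rose 7.12-fold, 5.14-fold and 4.86-fold.

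Nearly all of the pan-myeloid genes were higher in CD38 KO. Of the 41 that passed the filter of 1 FPKM, limma called 38 higher and 0 lower, with 0 lower also at an unadjusted p under 0.05, where 8.0% of all tested genes were called higher. The median change in log2(FPKM + 1) was 1.87 over the 41, against 0.00 over all tested genes. Both CD38 KO libraries lay above both WT libraries in 39 of the 41, against 30.4% of all tested genes. In 29.5% of all tested genes both lay below. With the genes under the filter counted, both lay above in 42 of the 45. Since the filter uses the mean of all libraries, 5 of the 41 passed only through their CD38 KO level, namely Irf8, Csf2rb, Cd33, Dock2 and Alox5ap. All 5 were called higher, and of the 36 with a WT mean of at least 1 FPKM 33 were called higher. The 4 genes under the filter were Ikzf1, Csf3r, Ms4a6b and Cd86.

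Fold changes in mean FPKM of the 38 ran from 1.21 to 12.3, with a median of 5.10 and quartiles of 4.37 and 6.16. In 28 of them the fold lay between 4 and 7, in 3 above 7 and in 7 below 4. Changes of at least 4-fold upward were seen in 1.68% of all tested genes. With 1 library left out, 34 of the 38 stayed called in all 4 fits, and Irf8, Csf2rb, Cyba and Alox5ap did not. CD38 KO 1 was above CD38 KO 2 in 33 of the 45 genes, by a median ratio of 1.09, and the ratio of WT 1 to WT 2 had a median of 1.03.

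**Figure D1:**
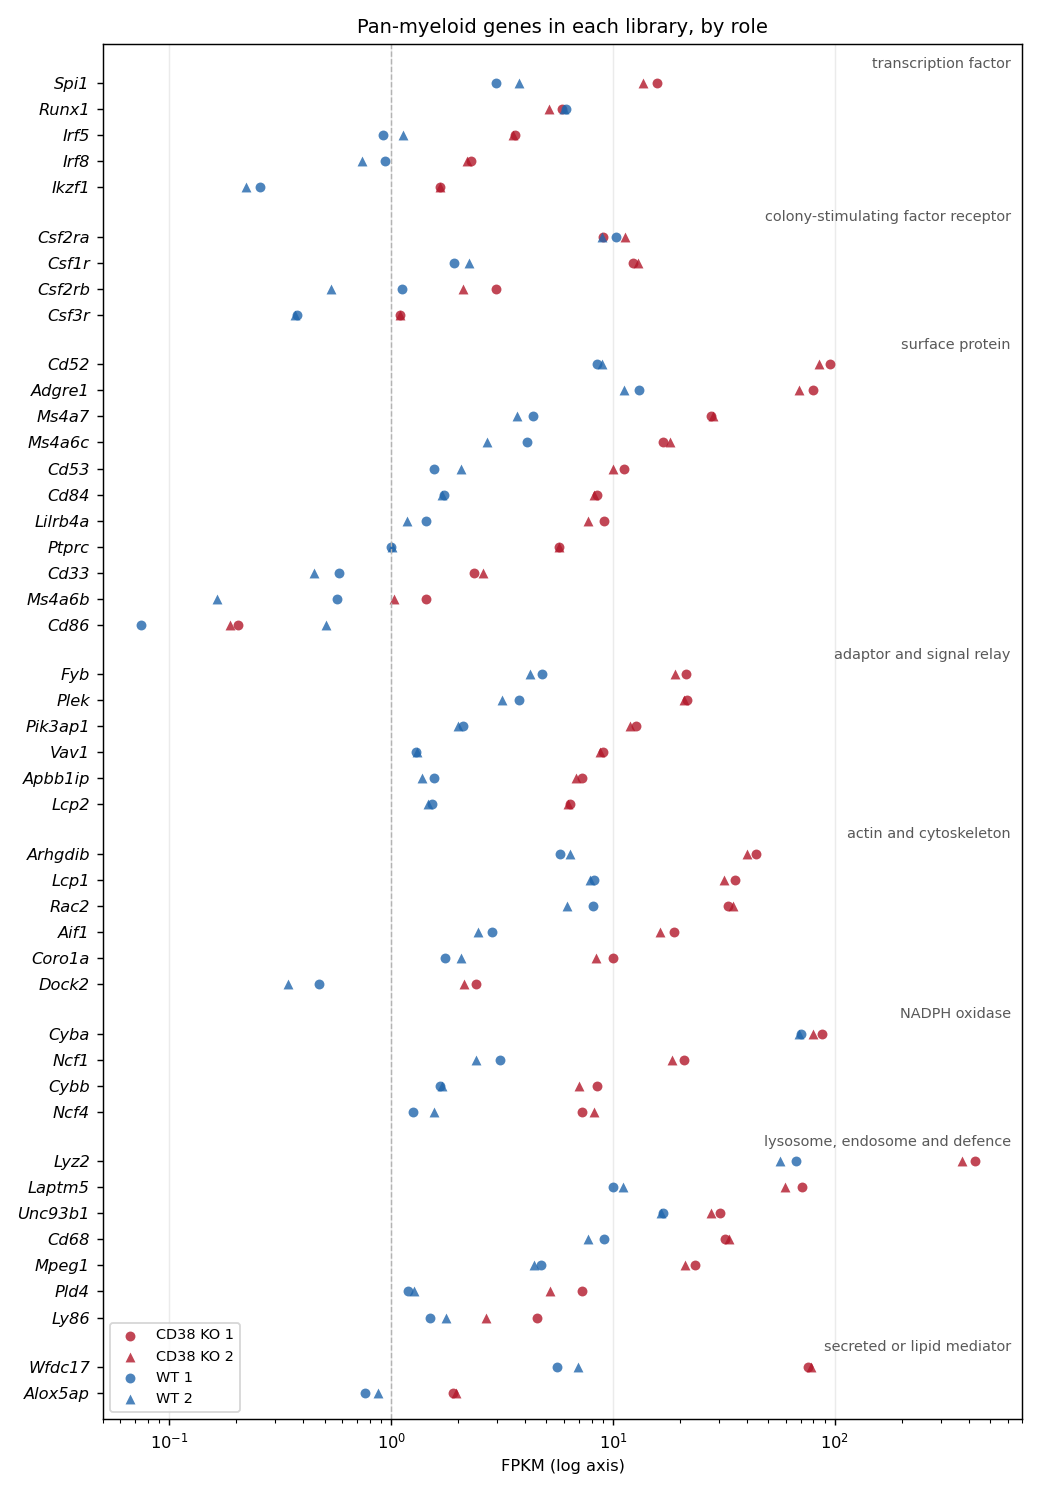
FPKM of the 45 pan-myeloid genes (rows, grouped by role) in each library on a log axis; red marks CD38 KO and blue WT, circles replicate 1 and triangles replicate 2, and the dashed line 1 FPKM. In 42 of the 45 rows both red symbols lie right of both blue ones, and Runx1, Csf2ra and Cd86 are the exceptions.

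Among the lineage transcription factors, Spi1 and both interferon regulatory factors rose, while Runx1 did not move with them. Spi1, which encodes PU.1, was at 15.7 and 13.7 FPKM in CD38 KO and at 2.98 and 3.78 FPKM in WT. The groups were far apart, a 4.34-fold difference (log2 change 1.84, SE 0.12, adjusted p = 0.000543). Irf5, a factor downstream of Toll-like receptors, was at 3.62 and 3.53 FPKM in CD38 KO and 0.921 and 1.13 FPKM in WT (log2 change 1.18, SE 0.12, adjusted p = 0.00284). Irf8, a partner of PU.1 that microglia need, was at 2.29 and 2.2 FPKM in CD38 KO and 0.933 and 0.739 FPKM in WT. Its call (log2 change 0.82, SE 0.13, adjusted p = 0.0133) held in 1 of the 4 fits without a library, that without WT 1 (adjusted p = 0.0416), and reached 0.0827 without CD38 KO 1. Relative to Spi1, Irf8 stood at 0.146 and 0.160 in CD38 KO and at 0.313 and 0.195 in WT. Both CD38 KO ratios lay below both WT ratios, but the WT ratios differed widely from each other, and no test was run.

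Ikzf1, which encodes the lymphoid and myeloid zinc finger factor Ikaros, stayed under the filter with a mean of 0.948 FPKM over the libraries. It was at 1.65 and 1.66 FPKM in CD38 KO and 0.257 and 0.222 FPKM in WT, and a fit without the filter called it higher (log2 change 1.10, adjusted p = 0.0255). Runx1, needed for the first blood-forming cells, was at 5.91 and 5.14 FPKM in CD38 KO and 6.16 and 6.02 FPKM in WT. That is the only tested gene of the 41 with a change below 0 (log2 change -0.12, SE 0.09, adjusted p = 0.416). Runx1 is also made outside blood, and its level in WT was above that of Spi1. It took 69.9% and 70.0% of the summed FPKM of Runx1, Runx2 and Runx3 in CD38 KO and 74.3% and 69.3% in WT.

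The receptors for colony-stimulating factors split. Csf1r, the receptor for CSF1 and IL-34, rose 6.10-fold, with 12.3 and 12.9 FPKM in CD38 KO against 1.91 and 2.23 FPKM in WT (log2 change 2.15, SE 0.09, adjusted p = 0.000137). Both CD38 KO libraries were high and close to each other. Csf2ra, the subunit that gives the GM-CSF receptor its specificity, was at 8.97 and 11.3 FPKM in CD38 KO and 10.3 and 8.88 FPKM in WT. These groups overlapped (log2 change 0.07, SE 0.12, adjusted p = 0.749). Csf2rb, the signalling subunit of the same receptor, was at 2.98 and 2.11 FPKM in CD38 KO and 1.12 and 0.535 FPKM in WT. It was called (log2 change 0.96, SE 0.21, adjusted p = 0.0372), but in none of the fits without 1 library (adjusted p up to 0.192). In mice a neighbouring copy, Csf2rb2, holds 7.15% of the 75-base words of Csf2rb transcripts, so reads of the 2 can be confused. The ratio of Csf2ra to Csf2rb was 3.01 and 5.37 in CD38 KO and 9.19 and 16.6 in WT. Csf3r, the receptor for G-CSF on neutrophils and their precursors, stayed under the filter at 1.10 FPKM in each CD38 KO library and 0.376 and 0.368 FPKM in WT. Without a filter it was called at a log2 change of 0.61 (adjusted p = 0.0467).

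Csf1 and Il34, the ligands of Csf1r, were not called. They belong to a list of 8 growth factors of blood cells that also holds Kitl and Flt3l, which act on other receptors. Of the 8 genes 4 passed the filter, and limma called 0 higher, also at an unadjusted p under 0.05, and 1 lower, Kitl. Csf1, made by astrocytes and many other cells, was at 168 and 188 FPKM in CD38 KO and 188 and 175 FPKM in WT (log2 change -0.03, SE 0.07, adjusted p = 0.820). Il34, the other ligand of Csf1r, was at 12.3 and 12.7 FPKM in CD38 KO and 13.7 and 13.1 FPKM in WT (adjusted p = 0.355). Flt3l, the ligand of the receptor Flt3, was at 10.6 and 10.3 FPKM in CD38 KO and 9.77 and 12.2 FPKM in WT (adjusted p = 0.769). Kitl, which encodes stem cell factor, fell to 2.64 and 1.92 FPKM in CD38 KO, against 5.24 and 4.87 FPKM in WT (log2 change -0.89, SE 0.13, adjusted p = 0.0113), a call that ended without CD38 KO 2, WT 1 or WT 2 (up to 0.0815). Csf2, Csf3, Il3 and Il5 lay at or under 0.149 FPKM in every library. Csf1 thus exceeded its receptor 13.6-fold and 14.5-fold in CD38 KO and 98.2-fold and 78.3-fold in WT.

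All 9 tested surface proteins were called higher, against 8.0% of all tested genes. In each of the 9 both CD38 KO libraries lay above both WT libraries, against 30.4% of all tested genes. Cd52, a small lipid-anchored glycoprotein of leukocytes, rose 10.3-fold, with 94.6 and 84.6 FPKM in CD38 KO against 8.43 and 8.95 FPKM in WT (log2 change 3.22, SE 0.07, adjusted p = 2.82e-05). Adgre1, which encodes the macrophage antigen F4/80, was at 79.9 and 68.9 FPKM in CD38 KO and 13.1 and 11.2 FPKM in WT, a 6.12-fold difference (adjusted p = 0.000126). Ptprc, which encodes CD45, the phosphatase on all nucleated blood cells, was at 5.71 and 5.69 FPKM in CD38 KO and 0.996 and 1.01 FPKM in WT. The 2 libraries of each genotype were almost equal for Ptprc, a 5.67-fold difference (log2 change 1.74, SE 0.10, adjusted p = 0.000363). Cd53, a tetraspanin of leukocytes, has a single transcript, so its values convert to 510 and 455 fragments in CD38 KO and 66 and 92 in WT. Cd84, a self-binding receptor of the SLAM family, was 4.87-fold higher and Cd33, a lectin that binds sialic acid, 4.82-fold higher. Cd33 passed the filter only through its CD38 KO level.

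Cd86, a costimulatory protein for T cells, was the 1 surface gene that overlapped. It was at 0.203 and 0.188 FPKM in CD38 KO and 0.0745 and 0.510 FPKM in WT, too low to be tested, which is at most 34.2 fragments in any library if all came from its longest transcript. Ms4a6c and Ms4a7, tetraspan proteins of myeloid cells from 1 gene cluster on chromosome 19, rose 5.14-fold and 6.97-fold. Ms4a7 was at 27.7 and 28.3 FPKM in CD38 KO and 4.34 and 3.70 FPKM in WT. Ms4a6b, their neighbour, was at 1.44 and 1.03 FPKM in CD38 KO and 0.570 and 0.163 FPKM in WT, under the filter and not called without it (adjusted p = 0.186). Lilrb4a, an inhibitory receptor, was 6.42-fold higher, but 39.8% of its 75-base words also occur in other annotated genes, chiefly Gm49339 and Lilr4b, and how the authors' counting divided such reads is not given.

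**Figure D2:**
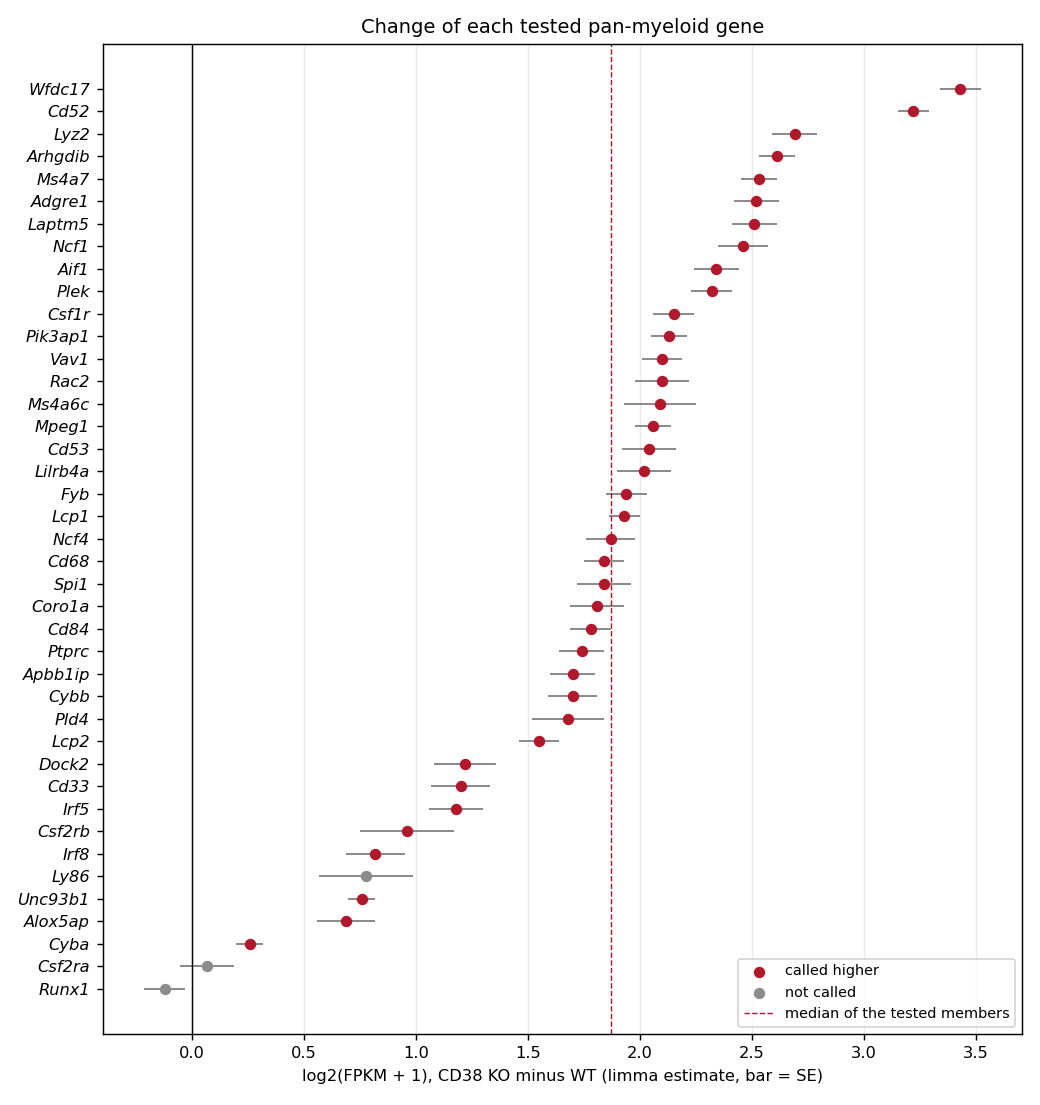
Limma estimate of the change in log2(FPKM + 1), CD38 KO minus WT, of the 41 tested pan-myeloid genes, with bars of 1 SE; red marks genes called higher and grey genes not called, and the dashed line the median of 1.87. Wfdc17 and Cd52 lead at 3.43 and 3.22, most genes lie near the median, and Cyba, Csf2ra and Runx1 lie near 0.

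Adaptors that relay signals from immune receptors rose together, all 6 of 6 tested, by 4.2-fold to 6.85-fold. Fyb, an adaptor that couples receptors to integrins, was at 21.2 and 19.1 FPKM in CD38 KO and 4.79 and 4.24 FPKM in WT. Plek, which encodes pleckstrin, a substrate of protein kinase C, had the smallest p, with 21.5 and 20.9 FPKM in CD38 KO against 3.75 and 3.16 FPKM in WT (log2 change 2.32, SE 0.09, adjusted p = 0.000102). Vav1, an exchange factor that activates Rac, was at 9.0 and 8.71 FPKM in CD38 KO and 1.29 and 1.30 FPKM in WT. Lcp2, which encodes the scaffold SLP-76, was 4.2-fold higher, and Apbb1ip, which encodes the Rap1 effector RIAM, 4.8-fold higher. Pik3ap1, which encodes BCAP, a link from Toll-like receptors to PI3 kinase, was 6.03-fold higher. None of the 6 lost its call without 1 library, with adjusted p up to 0.0186.

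The genes of the actin cytoskeleton and its regulators also rose in 6 of 6. Arhgdib, a regulator of small GTPases in blood cells, was at 43.9 and 40.3 FPKM in CD38 KO and 5.74 and 6.39 FPKM in WT (log2 change 2.61, SE 0.08, adjusted p = 4.88e-05). Rac2, the Rac GTPase of blood cells, was at 32.8 and 34.6 FPKM in CD38 KO and 8.09 and 6.21 FPKM in WT, a 4.71-fold difference. Lcp1, which encodes the actin bundler L-plastin, was 4.17-fold higher, and Coro1a, which encodes a coronin of leukocytes, 4.82-fold. Aif1, which encodes the microglial marker IBA1, was at 18.8 and 16.2 FPKM in CD38 KO and 2.85 and 2.47 FPKM in WT, a 6.59-fold difference. Dock2, an exchange factor for Rac in migrating leukocytes, was the lowest of the group at 2.40 and 2.13 FPKM in CD38 KO and 0.473 and 0.342 FPKM in WT, and it passed the filter only through its CD38 KO level.

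The phagocyte NADPH oxidase, which makes superoxide, showed 2 kinds of behaviour among its subunits. Cybb, the catalytic subunit gp91phox, was at 8.48 and 7.02 FPKM in CD38 KO and 1.65 and 1.70 FPKM in WT (log2 change 1.70, SE 0.11, adjusted p = 0.000618). The cytosolic subunit Ncf1 was at 20.8 and 18.5 FPKM in CD38 KO and 3.10 and 2.42 FPKM in WT, a 7.12-fold difference (adjusted p = 0.000179). Ncf4, also a cytosolic subunit, was at 7.26 and 8.24 FPKM in CD38 KO and 1.25 and 1.55 FPKM in WT, a 5.55-fold difference (adjusted p = 0.000461). These 3 were several-fold apart between genotypes. Cyba, the membrane partner p22phox, which other oxidases also use, was at 87.8 and 79.5 FPKM in CD38 KO and 70.2 and 68.6 FPKM in WT. That 1.21-fold difference was called (log2 change 0.26, SE 0.06, adjusted p = 0.0397), but in none of the fits without 1 library (up to 0.180). Cyba exceeded Cybb 10.4-fold and 11.3-fold in CD38 KO and 42.6-fold and 40.2-fold in WT.

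**Figure D3:**
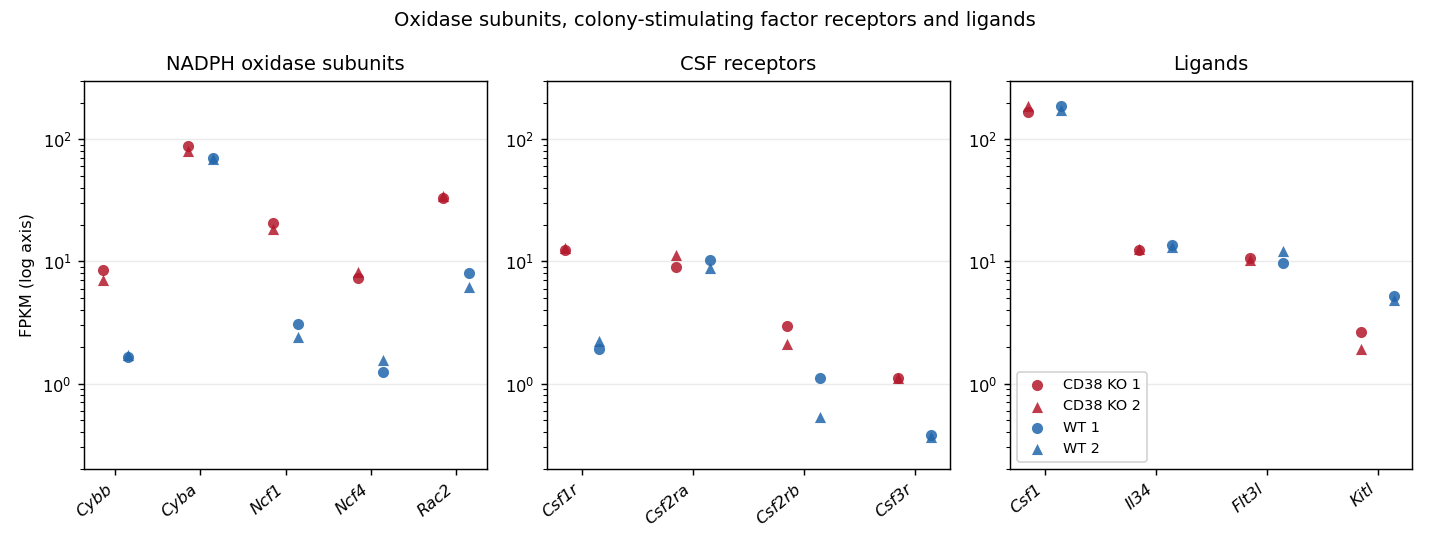
FPKM on a log axis of the NADPH oxidase subunits (left), the colony-stimulating factor receptors (middle) and the ligands (right) in each library; red marks CD38 KO and blue WT, circles replicate 1 and triangles replicate 2. Cyba, Csf2ra, Csf1, Il34 and Flt3l lie at similar levels in both genotypes, while Cybb, Ncf1, Ncf4, Rac2 and Csf1r are higher in CD38 KO.

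Lysosomal, endosomal and defence genes rose in 6 of 7. Lyz2, the lysozyme of macrophages and neutrophils, was the most abundant of the 45 at 429 and 375 FPKM in CD38 KO, against 66.5 and 56.3 FPKM in WT. Its single transcript gives 14265 and 12528 fragments in CD38 KO and 2052 and 1823 in WT (log2 change 2.69, SE 0.10, adjusted p = 0.00010). The neighbouring copy Lyz1, which holds 5.96% of the 75-base words of Lyz2, was far lower, at 0.724 and 0.754 FPKM in CD38 KO and 0.204 and 0.129 FPKM in WT. Laptm5, a lysosomal membrane protein of blood cells, was 6.16-fold higher, Mpeg1, which encodes the pore former perforin-2, 4.86-fold, and Pld4, an exonuclease of endosomes, 5.06-fold. Cd68, a lysosomal glycoprotein used to mark phagocytes, was at 31.9 and 33.4 FPKM in CD38 KO and 9.12 and 7.68 FPKM in WT, a 3.89-fold difference (adjusted p = 0.000192). Unc93b1, which carries Toll-like receptors to endosomes, rose less, with 30.2 and 27.5 FPKM in CD38 KO against 16.7 and 16.4 FPKM in WT (1.74-fold, log2 change 0.76, SE 0.06, adjusted p = 0.00154). Ly86, which encodes MD-1, a partner of the receptor RP105, was at 4.53 and 2.67 FPKM in CD38 KO and 1.5 and 1.76 FPKM in WT. The CD38 KO libraries differed widely for Ly86 and it missed the threshold (log2 change 0.78, SE 0.21, adjusted p = 0.0635), although both lay above WT. Without CD38 KO 2 it was called (adjusted p = 0.0430), and without the others it was not (up to 0.218). The receptor RP105 itself, encoded by Cd180, rose 8.55-fold, with 8.86 and 6.92 FPKM in CD38 KO against 0.975 and 0.869 FPKM in WT.

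The secreted protein Wfdc17 had the largest change of the 41, 12.3-fold. It encodes a small protein with a whey acidic protein domain that activated macrophages make, and it stood at 75.4 and 78.2 FPKM in CD38 KO and 5.59 and 6.92 FPKM in WT (log2 change 3.43, SE 0.09, adjusted p = 4.83e-05). Its single transcript gives 794 and 828 fragments in CD38 KO and 55 and 71 in WT. Alox5ap, which encodes FLAP, the helper of 5-lipoxygenase in leukotriene synthesis, was at 1.89 and 1.96 FPKM in CD38 KO and 0.761 and 0.870 FPKM in WT. It was called (log2 change 0.69, SE 0.13, adjusted p = 0.0222), but in none of the fits without 1 library (up to 0.0866). Alox5, the lipoxygenase it serves, was not called, at 1.78 and 2.84 FPKM in CD38 KO and 0.913 and 1.07 FPKM in WT (adjusted p = 0.0581).

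Set against CD45, the genes compared did not all keep the same proportion. Per unit of Ptprc, Csf1r stood at 2.16 and 2.27 in CD38 KO and 1.92 and 2.2 in WT. Lyz2 stood at 75.1 and 66.0 in CD38 KO and 66.8 and 55.6 in WT. Cd52 was at 16.6 and 14.9 in CD38 KO and 8.46 and 8.83 in WT, and Wfdc17 at 13.2 and 13.7 in CD38 KO and 5.61 and 6.83 in WT. For these 2 genes the CD38 KO ratio lay above the WT ratio in every library. For Cd68 it lay below, at 5.60 and 5.86 in CD38 KO and 9.15 and 7.58 in WT, and for Unc93b1 further below, at 5.29 and 4.83 in CD38 KO and 16.8 and 16.2 in WT. Spi1 stood at 2.74 and 2.41 in CD38 KO and 2.99 and 3.73 in WT. These ratios are descriptions with no test.

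Many of the genes have relatives, most but not all of them widely expressed. Of 28 listed paralogs 24 were tested, with 2 called higher (8.33%), 1 lower (4.17%) and 21 not called. Over all tested genes the shares were 8.0% higher and 6.35% lower. Of the 24, 1 passed the filter only through its CD38 KO level and was called higher, and of the other 23, 1 was called higher. The 4 under the filter were Runx3, Plek2, Lyz1 and Fyb2. In all 4 both CD38 KO libraries lay above both WT libraries, as in 8 of the 24 tested. Lyz1 was 4.43-fold higher, and a fit without the filter called it (limma, adjusted p = 0.0446). The folds of the 21 not called ran from 0.639 to 1.42. Rac1, the ubiquitous Rac, was at 269 and 268 FPKM in CD38 KO and 286 and 278 FPKM in WT (adjusted p = 0.296). Rac2 thus made up 9.41% and 10.1% of the summed Rac1, Rac2 and Rac3 level in CD38 KO and 2.41% and 1.90% in WT. Arhgdia, the widely expressed relative of Arhgdib, was at 223 and 212 FPKM in CD38 KO and 213 and 225 FPKM in WT (adjusted p = 0.914). The share of Arhgdib in its family was 16.2% and 15.8% in CD38 KO and 2.59% and 2.72% in WT. Vav1 held 42.2% and 41.9% of the Vav family in CD38 KO and 10.1% and 9.75% in WT, beside Vav2, which was not called (adjusted p = 0.788). Lcp1 held 38.9% and 34.8% of the plastins in CD38 KO and 11.3% and 11.2% in WT. Dock2, Coro1a, Laptm5 and Pld4 stayed under 13% of their families in every library.

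The called paralogs were Blnk, Coro1c and Aif1l. Blnk, an adaptor related to Lcp2 that B cells and macrophages use, belongs with blood cells itself. It was at 8.21 and 7.94 FPKM in CD38 KO and 0.926 and 0.978 FPKM in WT (log2 change 2.22, adjusted p = 0.000137). Blnk passed the filter only through its CD38 KO level. Coro1c was at 18.1 and 17.6 FPKM in CD38 KO and 14.3 and 14.5 FPKM in WT, a call that ended in all fits without 1 library (up to 0.153). Aif1l, the relative of Aif1, fell to 6.17 and 5.74 FPKM in CD38 KO, against 10.4 and 10.7 FPKM in WT (log2 change -0.73, SE 0.07, adjusted p = 0.00284). Aif1 and Aif1l moved in opposite directions, so that Aif1 held 75.3% and 73.9% of their sum in CD38 KO and 21.5% and 18.7% in WT.

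**Figure D4:**
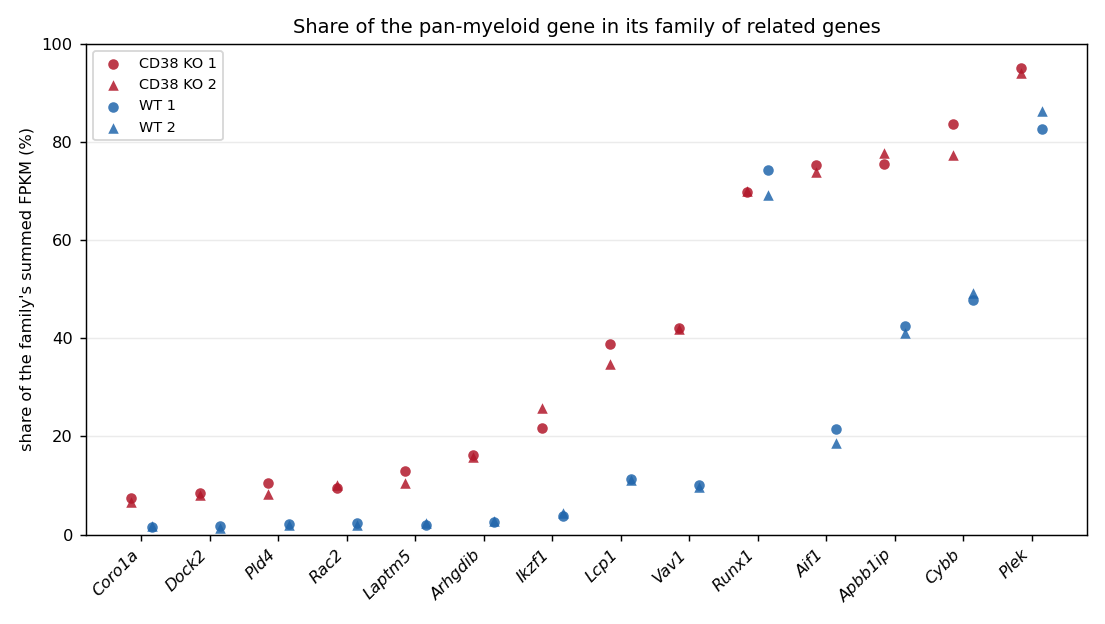
Share of each pan-myeloid gene (x axis) in the summed FPKM of itself and its paralogs, in percent, by library; red marks CD38 KO and blue WT, circles replicate 1 and triangles replicate 2. Every gene except Runx1 has both CD38 KO shares above both WT shares, and for Rac2, Coro1a, Dock2 and Pld4 the share stays near or under 10% in CD38 KO.

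Other genes of the same signalling routes, outside the 45, rose as well. Of 30 listed 25 were tested, with 21 called higher and 0 lower (1 lower at an unadjusted p under 0.05) and a median log2 change of 1.62. Over all tested genes, 8.0% were called higher and 6.35% lower. Among the 25, 8 passed the filter only through their CD38 KO level, 6 of them called higher, and of the 17 with a WT mean of at least 1 FPKM 15 were called higher. Fcer1g and Tyrobp, adaptors that carry ITAM motifs, rose 8.0-fold and 8.10-fold. Itgal, an integrin chain of leukocytes, rose 8.10-fold and Itgb2, its partner, 5.83-fold. Cebpb, Alox5 and Cd80 were among the 4 not called. Cebpb, a factor that many cells induce, was at 74.1 and 75 FPKM in CD38 KO and 83.0 and 79.0 FPKM in WT (adjusted p = 0.155).

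Some members lie side by side in the genome. On chromosome 15 of GRCm38, Ncf4, Csf2rb and Rac2, with Cyth4 from the signalling list, lie within 377.2 kb (78244801 to 78622019), a stretch picked after the positions were seen. All 4 were called higher. Of the other 6 tested genes between them, 3 were called lower and 3 not called. C1qtnf6, a secreted protein of the C1q and TNF family, was at 9.70 and 9.96 FPKM in CD38 KO and 14.9 and 15.4 FPKM in WT (log2 change -0.58, adjusted p = 0.00354), and the sulfur transferases Tst and Mpst were lower at -0.23 and -0.19. Neighbours in this stretch therefore did not move as a block.

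Markers of more specialised blood cells were mostly close to 0. Of 10 neutrophil markers, S100a9, Ly6g, Mpo, Elane, Ngp and Retnlg were listed at 0 in every library, and the 10 summed to 1.99 to 2.23 FPKM in CD38 KO and 1.63 to 2.56 FPKM in WT. Of 9 T cell markers, Cd3e, Cd3d, Cd3g and Cd2 were listed at 0 in every library, with sums of 3.02 to 3.30 FPKM in CD38 KO and 1.82 to 2.01 FPKM in WT, most of it Lck. The 5 B cell markers summed to 1.15 to 1.47 FPKM in CD38 KO and 0.0390 to 0.321 FPKM in WT, and the 5 dendritic cell markers to 1.93 to 2.01 FPKM in CD38 KO and 1.68 to 2.28 FPKM in WT. The 5 NK cell markers summed to at most 0.0923 FPKM and the 5 mast cell markers to at most 0.0410 FPKM in any library.

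Of 10 homeostatic microglia markers 6 were tested, with 4 called higher and 1 lower, and their sum was 134 to 143 FPKM in CD38 KO and 77.4 to 79.9 FPKM in WT. Tmem119 and Cx3cr1, both among the 4, passed the filter only through their CD38 KO level. The call of Tmem119 ended in every fit without 1 library. Cx3cr1, the fractalkine receptor, rose 12.1-fold, while P2ry12 was at 0.528 and 0.606 FPKM in CD38 KO and 0.243 and 0.633 FPKM in WT and Siglech was listed at 0 in every library. Of 10 border macrophage markers 4 were tested and 3 called higher, with a sum of 224 to 247 FPKM in CD38 KO and 17.1 to 19.8 FPKM in WT, and Stab1 of these passed only through its CD38 KO level. Marco and Cd209f supplied most of that sum, while Cd163 and Lyve1 stayed at or under 0.0560 FPKM. The 6 fibroblast and meningeal markers, of which limma called 0 of the 5 tested, with Col1a1 alone higher before adjustment (limma, unadjusted p = 0.0223), summed to 42.7 to 71.2 FPKM in CD38 KO and 34.6 to 46.3 FPKM in WT. The 8 oligodendrocyte lineage markers summed to 136 to 150 FPKM in CD38 KO and 168 to 174 FPKM in WT. The 7 neuronal markers summed to 55.7 to 56.7 FPKM in CD38 KO and 86.1 to 95.4 FPKM in WT. Most of that sum was Gad1, at 46.1 and 41.7 FPKM in CD38 KO and 71.4 and 81.5 FPKM in WT (adjusted p = 0.00334), and Tubb3 was not called (adjusted p = 0.294). The 6 endothelial markers summed to 1.96 to 2.11 FPKM in CD38 KO and 0.766 to 1.02 FPKM in WT. The part that a different content of microglia or macrophages has in the changes of the 45 genes was not tested.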

How the data were processed

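The deposited values are FPKM by Ensembl gene ID, with 55467 IDs in every one of the 4 files, per the file headers. Per the submitters' processing notes, bcl2fastq 2.17, STAR 2.7.0f, Cufflinks 2.2.1 and the build GRCm38 were used; the annotation release, any scaling between libraries and whether counting used strand are not stated there or in the labels. Gene positions came from GENCODE M21, also on GRCm38, and promoters from RefSeq (GRCm38.p6). Depth was estimated from 17444 genes with 1 transcript over 600 bases, where 91.8% to 92.4% of values below 10 fragments fell within 0.1 of a whole number; printed fragment numbers are estimates.

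The test was that of limma (version 3.58.1, under R 4.3.3), run on log2(FPKM + 1) for genes whose mean over the libraries reached 1 FPKM, with genotype as the only term, trended moderation and Benjamini-Hochberg adjustment over all 13064 genes at 0.05. The added 1 understates changes of low genes, and fold changes are ratios of mean FPKM without it. No count test was run, since FPKM are not counts, and 2 against 2 libraries allow no exact test of 1 gene to reach the threshold. The fit was tested on simulated data. Python 3.11.15 with numpy 2.4.6, pandas 2.3.3 and matplotlib 3.10.9 did the rest. Exons of 17 of the 45 genes overlap another gene, whose reads may be mixed in.

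The members and lists were chosen with earlier results of these data known. All 45 are accounted for; per role the most abundant, the one of smallest p and those not called higher have full values, as do complexes and receptor families, and of other lists up to 4 of smallest p. Values of some listed genes are not reported here. Genes named beyond that rule were chosen after their values were seen.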

Additional observations from a re-analysis of the deposited data

How the results depend on the processing

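With 0.1 or 0.5 added before the log, quantile or median-of-ratios scaling, and robust moderation, 38 of the 45 genes were called higher, and 36 with no trend. Without a filter 36 were called, namely 34 of the 38 with Ikzf1 and Csf3r, and Irf8, Csf2rb, Cyba and Alox5ap lost their calls. At a filter of 5 FPKM, which leaves fewer genes to test, it was 25, with 1 paralog and 11 other signalling genes higher and 0 ligands lower. The median log2 change was 2.23 with 0.1 added, 2.04 with 0.5 added and 2.10 at 5 FPKM. Without a filter 430 genes in all were higher and 312 lower, and 0 ligands were lower.

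With 1 library left out, 34 to 35 of the 45 were called higher, with a median of 1.87 to 1.93, 306 to 458 genes in all higher and 225 to 284 lower, 17 to 20 signalling genes higher, 1 paralog higher and 0 to 1 ligand lower. These fits take the spread of a lone library from the other genotype. Csf2ra, never called, had log2 changes of -0.08 to 0.22 in them, below 0 without CD38 KO 2 (-0.08) and without WT 2 (-0.02).

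Same-numbered libraries did not deviate together (correlation -0.16 across genes), so the numbers were not taken as pairs. With a replicate block 36 of the 45, 1 paralog, 610 genes in all higher and 427 lower were called. Crossing the numbers in the block, chosen after seeing the data, gave 39 of the 45, 1102 higher and 859 lower. Cd86, at an estimated 4.7 and 34.2 fragments in the WT libraries, was too low to test.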
